A study of Sorghum bicolor with 12 samples.

Results

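Dw1, Dw2 and Dw3 are 3 loci at which recessive alleles shorten the stem of sorghum (Sorghum bicolor), and they were followed here through mRNA and ribosome footprints of young shoots. They were chosen by ID from the known loci, since the deposited tables carry no gene names. Dw1 is Sobic.009G229800.1 on chromosome 9, Dw2 is Sobic.006G067700.2 on chromosome 6 and Dw3 is Sobic.007G163800.1 on chromosome 7, with the chromosome read from the ID. The 3 transcripts were among 34210 in the RNA table and 34026 in the footprint table, with 1 transcript per gene, and each passed the filter on low counts in both. Their coding lengths in the authors' deposited table were 1533 bases (511 codons), 2430 bases (810 codons) and 4626 bases (1542 codons), against a median of 981 over all transcripts.

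Sorghum breeding for short, machine-harvested grain types drew on recessive alleles of these genes. Dw1 encodes a membrane protein that promotes brassinosteroid signalling and cell proliferation in internodes. Dw2 encodes a protein kinase of the AGC family, related to the kinase KIPK of Arabidopsis. Dw3 encodes the ABCB1 transporter, which moves auxin out of cells along the stem and is the counterpart of Brachytic2 of maize. Which alleles the line used here carries is not given in the labels and was not determined here.

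The plants were the inbred line BTx623, harvested as whole shoots 13 days after sowing, of which 5 were for germination and 8 for growth on either solution. Control solution held 500 µM sulfate. The deficient solution held 10 µM by the titles and growth protocol and 0 µM by the series' design text, so it is called deficient. Each treatment had 3 shoots, labelled biological replicates, and each shoot gave 1 RNA-seq library and 1 Ribo-seq library, which counts mRNA fragments of 26 to 34 nt protected by ribosomes. A whole shoot mixes leaf and stem tissue, so a lower level in fewer cells and a lower level per cell cannot be told apart in any value below.

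Total counts lay between 13995665 and 18475153 in RNA-seq and between 6328659 and 11066815 in Ribo-seq. On the second principal component of the RNA libraries (25.9% of variance) control shoot 3 and deficient shoot 1 scored -16.2 and -32.8, and the other 4 shoots 8.53 to 19.4. The descriptions number these shoots 7 and 9, the other controls 1 and 3 and the other deficient shoots 13 and 15, and give no meaning for these numbers. Changes with sulfur supply are also given without that pair, and those of mRNA and of footprints with these number pairs as a batch term.

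The first comparison asked whether sulfur deficiency went with a different mRNA level of the dwarfing genes. None of the 3 passed the test. Dw1 and Dw2 differed by less than the spread between shoots, and Dw3 was lower in each deficient shoot than in any control shoot without passing the threshold. Over all transcripts, 0.634% of 20045 tested were called at an edgeR adjusted p under 0.05.

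Dw1 mRNA, for the membrane protein, stood at 9.86, 8.22 and 9.72 CPM (counts scaled to the library size) in control shoots 1, 2 and 3. It stood at 8.35, 9.58 and 10.1 CPM in deficient shoots 1, 2 and 3. The groups overlapped throughout, at 9.27 ± 0.912 and 9.36 ± 0.916 CPM (SD, n = 3 shoots each). The log2 fold change was 0.01 (SE 0.123, 95% interval -0.26 to 0.29, edgeR adjusted p = 0.976). That interval leaves room for a level between 0.835 and 1.22 times that of control.

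Dw2 mRNA, for the AGC kinase, was the steadiest of the 3 over both treatments. Control shoots 1, 2 and 3 stood at 35.6, 32.7 and 33.6 CPM and deficient shoots at 33.2, 35.0 and 32.2 CPM. The groups overlapped, at 34.0 ± 1.50 and 33.5 ± 1.41 CPM. The log2 fold change was -0.02 (SE 0.0709, 95% interval -0.18 to 0.14, edgeR adjusted p = 0.930), an interval from 0.884 to 1.10 times the control level. Over the 6 shoots the coefficient of variation of Dw2 was 3.95%, against 8.79% for Dw1 and 10.8% for Dw3. The Dw3 value includes its difference between treatments. In control shoots alone Dw3 varied least, at 2.33%, against 4.42% for Dw2 and 9.84% for Dw1.

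Dw3 mRNA, for the auxin transporter, stood at 39.5, 37.8 and 38.3 CPM in control shoots 1, 2 and 3. In deficient shoots 1, 2 and 3 it stood at 31.3, 30.4 and 36.9 CPM. All deficient shoots were below all control shoots, with deficient shoot 3 nearest to the controls. Groups without overlap and with the lower values under deficiency made up 8.18% of all transcripts tested, and groups without overlap in either direction 17.6%. The means were 38.5 ± 0.897 and 32.8 ± 3.51 CPM, a log2 fold change of -0.23 (SE 0.0834, 95% interval -0.42 to -0.05). The edgeR adjusted p was 0.311 and the unadjusted p 0.0183, and 12.2% of all transcripts tested had an unadjusted p under 0.05. The estimate was -0.32 without deficient shoot 3 and between -0.24 and -0.18 without any other single shoot.

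With these number pairs as a batch term, the sulfur term compares deficient shoot 1 with control shoot 3 alone. In that fit the mRNA log2 changes were -0.22 for Dw1, -0.02 for Dw2 and -0.29 for Dw3. Without these shoots they were 0.14, -0.003 and -0.19, with edgeR adjusted p of 0.583, 0.988 and 0.198.

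**Figure D1:**
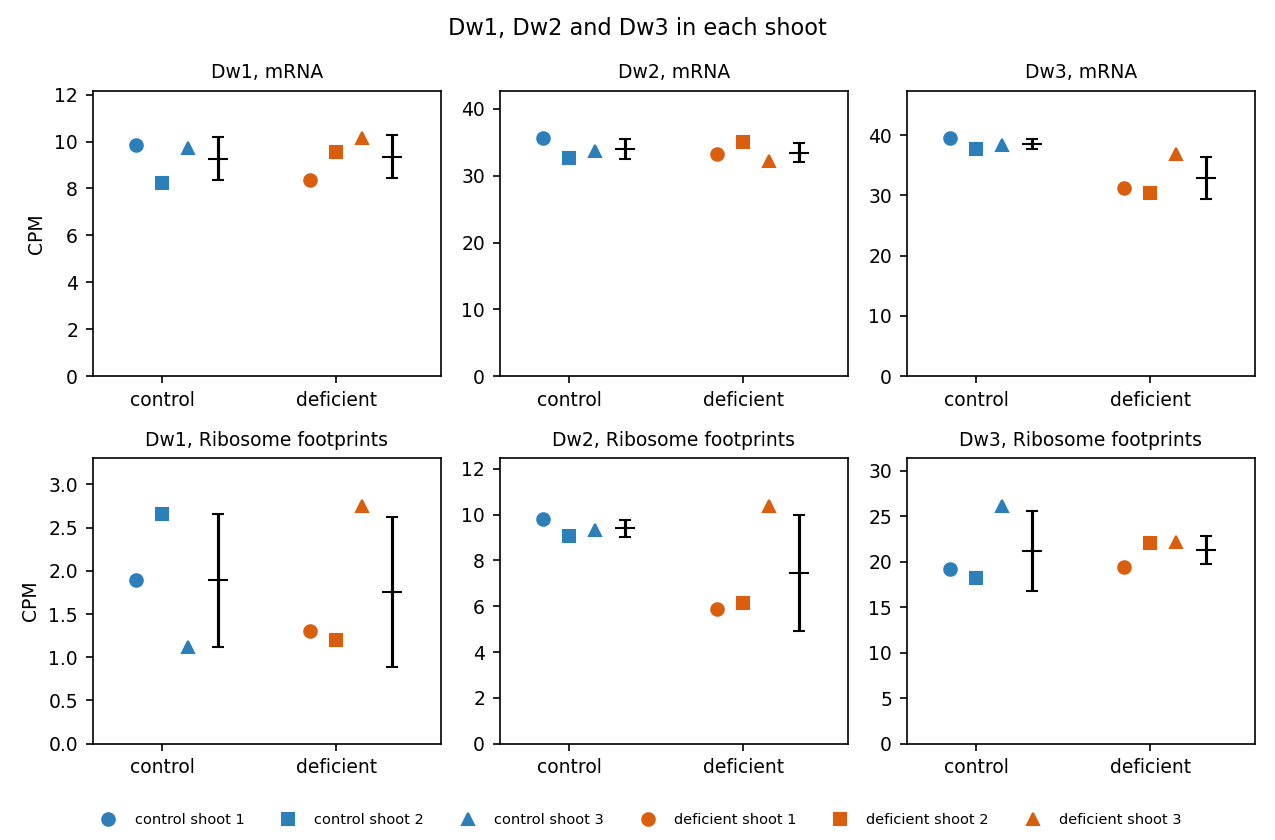
CPM (vertical axes, from 0) of Dw1, Dw2 and Dw3 in mRNA (top) and ribosome footprints (bottom) for the 3 control and 3 deficient shoots, each a point, with the mean and SD of each group as a black bar. The Dw3 mRNA points of deficient shoots, 30.4 to 36.9 CPM, lie below those of control shoots, 37.8 to 39.5 CPM, and the groups overlap in each other panel.

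The second comparison asked whether the ribosome footprints on these mRNAs differed. Footprint levels of the 3 genes overlapped between treatments, whereas 10.9% of all transcripts tested had groups without overlap. None passed the test, which called 0.224% of 16514 transcripts. Dw2 stood lower in 2 of 3 deficient shoots. The 95% interval for Dw1 reached to about 2-fold in either direction.

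Footprints on Dw1 numbered 17, 31 and 10 in control shoots 1, 2 and 3 and 8, 10 and 22 in deficient shoots. Deficient shoot 1 thus had 1 footprint per 63.9 codons of Dw1, and control shoot 2, the densest, 1 per 16.5 codons. Scaled to the libraries, control shoots stood at 1.89, 2.65 and 1.12 CPM and deficient shoots at 1.31, 1.20 and 2.75 CPM. High and low shoots occurred in both treatments. Counting alone gives deficient shoot 1 an exact Poisson 95% interval of 0.565 to 2.58 CPM and deficient shoot 3 one of 1.73 to 4.17 CPM. Such intervals cover counting error only. The log2 fold change was -0.12 (SE 0.438, 95% interval -1.09 to 0.85, edgeR adjusted p = 0.971), or 0.470 to 1.81 times the control level.

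Dw2 footprints were close to each other in control shoots, at 9.80, 9.08 and 9.32 CPM (88, 106 and 83 counts). Deficient shoots 1 and 2 stood lower, at 5.89 and 6.12 CPM (36 and 51 counts), and deficient shoot 3 stood above every control shoot, at 10.4 CPM (83 counts). The group means were 9.40 ± 0.369 and 7.47 ± 2.54 CPM. The log2 fold change was -0.32 (SE 0.235, 95% interval -0.84 to 0.20, edgeR adjusted p = 0.788). Without deficient shoot 3 it was -0.64 at an unadjusted p of 0.0108, and the edgeR adjusted p was 0.326. Without any other single shoot it lay between -0.35 and -0.18. The edgeR fit without deficient shoot 3 gave 2001 of 16966 transcripts an unadjusted p under 0.05. Dw1 footprints, too, were highest in deficient shoot 3 among the deficient shoots.

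Dw3 footprints stood at 19.2, 18.2 and 26.2 CPM in control shoots (172, 212 and 233 counts) and at 19.5, 22.1 and 22.2 CPM in deficient shoots (119, 184 and 177 counts). Control shoot 3 was the highest of the 6, and the deficient shoots lay within the control range. The means were 21.2 ± 4.36 and 21.2 ± 1.54 CPM, a log2 fold change of 0.01 (SE 0.171, 95% interval -0.37 to 0.39, edgeR adjusted p = 0.993). The footprint interval includes the Dw3 mRNA estimate of -0.23.

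The number pairs as a batch term again leave only deficient shoot 1 against control shoot 3. The footprint log2 changes were then 0.22 for Dw1, -0.66 for Dw2 and -0.43 for Dw3. Without control shoot 3 and deficient shoot 1 they were -0.22, -0.19 and 0.25, so that the directions for Dw1 and Dw3 turned with the choice.

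The spread between shoots of a treatment was set against counting error by the chi-square per degree of freedom, which is near 1 when reads alone account for it. Dw2 mRNA had 0.965 and Dw1 mRNA 1.36, and Dw3 mRNA had 2.96, with 0.305 in control and 5.61 in deficient shoots. In footprints the values were 3.17 for Dw1, 3.32 for Dw2 and 4.70 for Dw3. The Dw2 footprint value was 6.49 in deficient and 0.144 in control shoots, and that of Dw3 was 0.742 in deficient and 8.66 in control shoots. With 3 shoots a group, such contrasts in spread were not tested.

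Across the 6 shoots, no relation between the footprints of a dwarfing gene and its mRNA was detectable. Pearson's r of the log2 CPM values was -0.04 for Dw1, -0.22 for Dw2 and 0.02 for Dw3 (exact permutation p = 0.911, 0.688 and 0.964, and 0.964 for each after adjustment over 3 relations). Spearman's rho was 0.20, -0.14 and -0.14 (exact permutation p = 0.714, 0.803 and 0.803, and 0.803 for each when adjusted). Without the 2 shoots farthest from the median mRNA level, r was 0.94, -0.45 and -0.18 over 4 shoots, so the value for Dw1 rests on control shoot 2 and deficient shoot 1.

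The third comparison asked whether translational efficiency, the footprint level relative to the mRNA level, changed with sulfur supply. No change passed the test for Dw1, Dw2 or Dw3, and 0% of 16420 transcripts tested did so in edgeR, where 2.48% (407) had an unadjusted p under 0.05. The ratios of all 3 genes overlapped between treatments, and those of 8.14% of all transcripts did not. DESeq2 also called 0, with 341 under 0.05.

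The ratio of footprint CPM to mRNA CPM was 0.197, 0.329 and 0.121 for Dw1 in control shoots 1, 2 and 3, and 0.163, 0.131 and 0.276 in deficient shoots. These overlap widely, and the log2 change was -0.14 (SE 0.415, 95% interval -1.03 to 0.76). For Dw2 the control ratios were nearly equal, at 0.277, 0.279 and 0.278, while deficient shoots stood at 0.179, 0.177 and 0.324. The log2 change of Dw2 was -0.30 (SE 0.224, 95% interval -0.78 to 0.19). Without deficient shoot 3 it was -0.65 (unadjusted p = 0.00234, edgeR adjusted p = 0.685), and without any other single shoot between -0.31 and -0.12. The edgeR fit without deficient shoot 3 gave 1164 of 16863 transcripts an unadjusted p under 0.05. For Dw3 the ratios were 0.486, 0.482 and 0.683 in control shoots and 0.624, 0.728 and 0.602 in deficient shoots, so that 2 control shoots lay below all deficient shoots. The log2 change of Dw3 was 0.25 (SE 0.186, 95% interval -0.15 to 0.65). Without control shoot 3 it was 0.43 (unadjusted p = 0.0228, edgeR adjusted p = 1.00), and without any other single shoot between 0.15 and 0.31. The edgeR fit without control shoot 3 gave 616 of 16791 transcripts an unadjusted p under 0.05. The edgeR adjusted p was 1.00 for each of the 3 genes with all shoots. That model used 1 estimate of spread per transcript for both assays, although footprints spread more than mRNA. Its SE for Dw1 and Dw2 were thus below those of their footprints alone, and the intervals may be too narrow. A linear model of the ratio per shoot (limma) gave SE of 0.426 for Dw1, 0.268 for Dw2 and 0.192 for Dw3. Without control shoot 3 and deficient shoot 1 the log2 changes in efficiency were -0.37 for Dw1, -0.19 for Dw2 and 0.44 for Dw3, with edgeR adjusted p of 0.985, 0.985 and 0.983 and unadjusted p of 0.413, 0.507 and 0.0319.

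**Figure D2:**
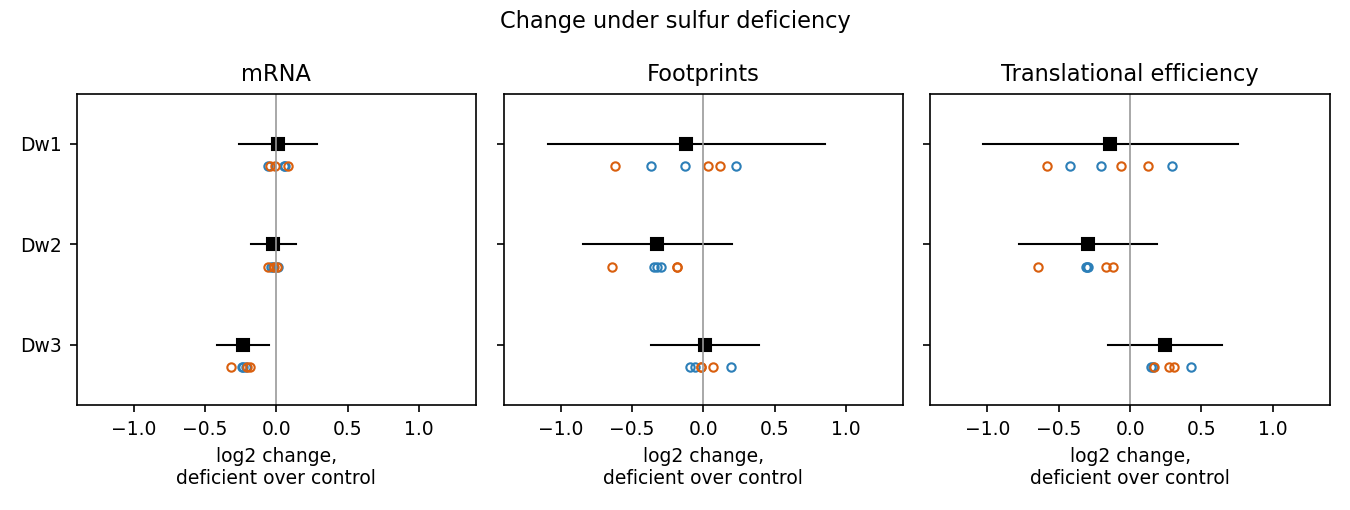
Log2 change, deficient over control (horizontal axes), of Dw1, Dw2 and Dw3 in mRNA, footprints and translational efficiency, with squares for the edgeR estimate from all shoots and lines for its 95% interval. Small circles give the estimate without 1 shoot (blue, a control shoot left out; orange, a deficient shoot left out), and only the Dw3 mRNA interval, -0.42 to -0.05, leaves out 0.

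The genes were then compared with each other within each shoot. Levels were divided by coding length, since a longer transcript yields more fragments. RNA reads may also fall in untranslated regions, whose lengths are not used here. Dw2 had the most mRNA per coding kilobase, but Dw3 carried the most footprints, and Dw1 was lowest in both. All 6 shoots showed these orders. The footprint margin of Dw3 over Dw2 was small in control shoots 1 and 2 and deficient shoot 3, at 1.02-fold, 1.05-fold and 1.12-fold.

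Per coding kilobase, Dw2 mRNA ranged from 13.2 to 14.7 CPM over the 6 shoots (median 13.8), Dw3 mRNA from 6.57 to 8.54 CPM (median 8.07) and Dw1 mRNA from 5.36 to 6.62 CPM (median 6.29). Dw2 lay apart from both others, while the ranges of Dw3 and Dw1 touched. Within shoots Dw2 was 2.28-fold above Dw1 (range 2.00 to 2.50), and Dw3 was 1.26-fold above Dw1 (1.05 to 1.52). Dw3 stood at 0.554 times Dw2 (0.457 to 0.607).

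Footprints per coding kilobase ranged from 3.92 to 5.65 CPM for Dw3 (median 4.49), from 2.42 to 4.28 CPM for Dw2 (median 3.78) and from 0.732 to 1.80 CPM for Dw1 (median 1.04). Dw3 exceeded Dw2 by 1.34-fold within shoots, from 1.02-fold in control shoot 1 to 1.88-fold, and their ranges overlapped. Dw3 exceeded Dw1 by 3.96-fold (2.23 to 7.36) and Dw2 exceeded Dw1 by 2.96-fold (2.12 to 5.01). Each of the 6 level comparisons had the same direction in 6 of 6 shoots and an exact sign-flip permutation p of 0.0312, also when adjusted over the 6. That is the smallest two-sided p that 6 shoots allow.

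**Figure D3:**
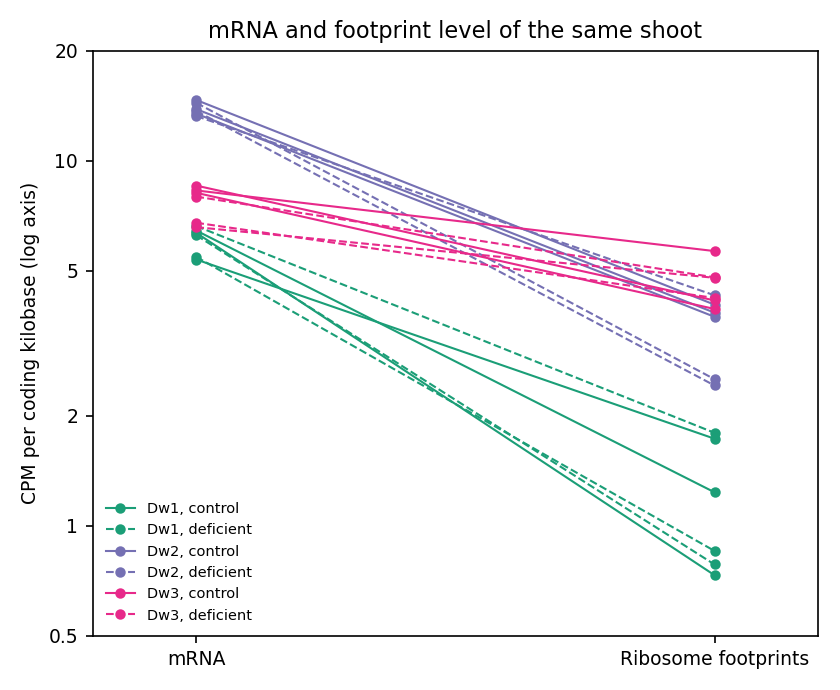
CPM per coding kilobase (vertical log axis) of Dw1, Dw2 and Dw3 in mRNA (left) and footprints (right), with a line joining the 2 libraries of each control (solid) or deficient (dashed) shoot. Dw2 lines start highest, at 13.2 to 14.7 CPM per kilobase, and cross those of Dw3, which end at 3.92 to 5.65.

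The translational efficiency of Dw3 was higher than that of the other two genes. Over the 6 shoots the ratio of footprint CPM to mRNA CPM ranged from 0.482 to 0.728 for Dw3 (median 0.613), from 0.177 to 0.324 for Dw2 (median 0.277) and from 0.121 to 0.329 for Dw1 (median 0.180). Coding length cancels in this ratio, but RNA reads in untranslated regions, if counted, do not, and their share in each gene was not tested. No Dw3 value overlapped with those of Dw2 or Dw1, and the ranges of Dw2 and Dw1 overlapped. Within shoots, Dw3 was 2.42-fold above Dw2 (1.73 to 4.12) and 3.13-fold above Dw1 (1.47 to 5.65), each in 6 of 6 shoots. The exact sign-flip permutation p was 0.0312, or 0.0469 adjusted over the 3 pairs. Dw2 was 1.30-fold above Dw1 in the mean and higher in 5 of 6 shoots (range 0.849 to 2.30), with an exact permutation p of 0.125 that did not pass. Biases of counting that belong to 1 transcript, such as reads shared with a related gene, were not tested.

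Among the transcripts that passed the filter of each assay, the dwarfing genes were ordinary in mRNA and below the median in footprints. Of 20021 transcripts that passed the RNA filter and have a coding length, 53.5% had less mRNA per coding kilobase than Dw2, 38.7% less than Dw3 and 33.5% less than Dw1. In footprints per coding kilobase, over 16514 transcripts, these shares were 22.1% for Dw2, 28.2% for Dw3 and 5.17% for Dw1. Each share was lower in footprints than in mRNA, but the sets differ, since fewer transcripts passed the footprint filter. How far that filter lowered the footprint shares was not tested.

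The footprint to mRNA ratio, taken over transcripts that passed both filters, was also below the median for each of the 3 genes. The median footprint to mRNA ratio of 16420 transcripts was 0.814. Dw1, with a geometric mean over the 6 shoots of 0.189, exceeded 3.48% of them, Dw2 with 0.246 exceeded 6.23%, and Dw3 with 0.593 exceeded 31.5%. The footprint filter leaves out transcripts with few footprints, and how far it lowered these positions was not tested. In single shoots Dw1 lay between the 1.11 and 11.7 percentiles, Dw2 between 3.58 and 11.1, and Dw3 between 23.3 and 42.1. The positions were near these among transcripts of like coding length. Among 1618 transcripts of 1428 to 1629 bases, with a median ratio of 0.805, Dw1 exceeded 3.77%. Among 1643 of 1977 to 2604 bases (median 0.779) Dw2 exceeded 9.01%. Among the 1639 longest (median 0.734), which span a wide range of 2607 to 16311 bases, Dw3 exceeded 38.1%.

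**Figure D4:**
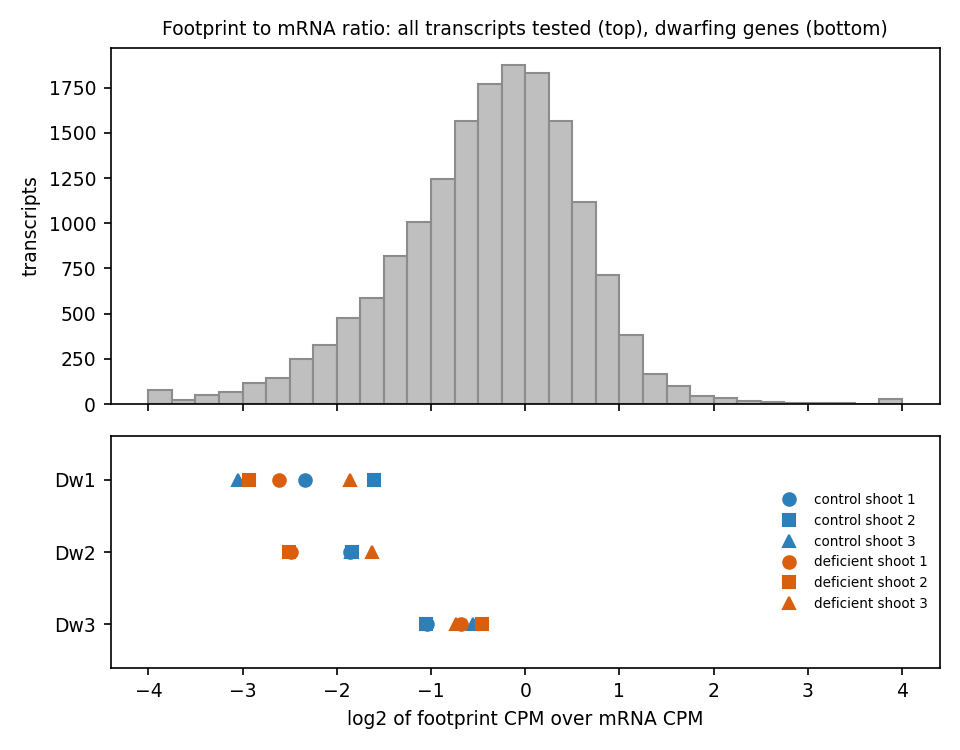
Top, number of transcripts by log2 ratio of footprint CPM to mRNA CPM (geometric mean over 6 shoots, 16420 transcripts that passed both filters, with 58 below -4 and 28 above 4 put in the end bars). Bottom, the same log2 ratio of Dw1, Dw2 and Dw3 in each shoot, where Dw1 and Dw2 lie in the left tail (ratios of 0.121 to 0.329) and Dw3 nearer the centre (0.482 to 0.728).

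Likeness of pattern was measured as Pearson's r over 12 values, the log2 CPM of the 6 RNA and 6 footprint libraries with each assay's mean removed. Dw1 and Dw2 had an r of 0.62 with each other, Dw3 and Dw2 one of 0.08 and Dw3 and Dw1 one of -0.34. The 12 values come from 6 shoots and footprints vary more, so shoots with high footprints weigh most. Over 12508 candidates (12509 for Dw1) with a mean log2 CPM of at least 2 in both assays, the transcripts most like Dw1 were Sobic.010G060600.1 (r = 0.92), Sobic.001G518200.2 (0.91) and Sobic.001G118200.1 (0.89). Those most like Dw2 were Sobic.001G061200.1 (0.96), Sobic.005G014700.1 (0.94) and Sobic.010G235200.2 (0.94). Those most like Dw3 were Sobic.004G260800.1 (0.93), Sobic.001G218800.2 (0.88) and Sobic.004G319000.1 (0.87). Dw1 itself, with a mean of 1.82 footprint CPM from 8 to 31 counts, lay below the limit set for candidates. Counting error thus weighs more in its r values. An r above 0.9 was reached by 2 transcripts for Dw1, 20 for Dw2 and 1 for Dw3. These are the best of many candidates over few shoots, and none of the 9 was called by edgeR in mRNA or footprints (lowest adjusted p = 0.327). They were picked from the same libraries for likeness to uncalled genes, so that count is no separate result. Over all transcripts tested, edgeR called 0.634% in mRNA and 0.224% in footprints.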

How the data were processed

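Both deposited tables hold raw counts, which the authors did not normalize: RNA-seq reads per transcript and footprint P sites (the codon held by the ribosome) summed over each coding sequence, 1 transcript per gene. The submitters' processing notes list Bowtie2 and STAR. The sources used here give neither the roles of these tools nor the genome build, annotation, counting program, strand setting, P-site offsets or treatment of reads that match several transcripts. The coding length per transcript is the authors' deposited column.

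The members and lists were chosen with earlier results of these data known. Counts were scaled by TMM and filtered by filterByExpr (minimum count 10, minimum total 15). Changes were tested on whole tables with edgeR 4.0.16 in R 4.3.3, by the robust quasi-likelihood test with Benjamini-Hochberg adjustment at 0.05. Translational efficiency was the assay by treatment interaction over 12 libraries, with 1 estimate of spread per transcript for both assays. The analysis code was tested on simulated data. CPM refers to the TMM-scaled library size, and log2 CPM and ratios used a prior count of 0.5. Dw genes were compared with each other within shoots by exact two-sided sign-flip permutation over 6 shoots. For each Dw gene, the 3 transcripts of most like pattern were named. The lists of pathway and cell type genes rested on product names, and 0 IDs matched the reference gene table, assembly Sorghum_bicolor_NCBIv3. The lists were therefore void, and the labelled tissue was not checked by markers here.

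RNA and footprint deviations from the group mean correlated between 0.109 and 0.488 within each shoot, which the labels say gave 1 powder for both libraries. These libraries therefore pair by shoot. The alternatives were DESeq2 1.42.0, its size factors, no filter, other library sizes, blocks, a term for the numbers in the sample descriptions, limma 3.58.1 on the ratios, and leaving out shoots.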

Additional observations from a re-analysis of the deposited data

How the results depend on the processing

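None of the 9 changes of the Dw genes with sulfur supply passed an adjusted p of 0.05 under any of the 117 alternative fits, with a lowest adjusted p of 0.198, that of Dw3 mRNA in edgeR without control shoot 3 and deficient shoot 1. Leaving out that pair and limma on ratios per shoot were chosen after seeing the data. Of these fits, 17 turned the direction of an uncalled value, 14 of them on leaving out 1 shoot. The description number pairs as a batch term turned the mRNA change of Dw1 to -0.22 and its footprint change to 0.22. The footprint change of Dw3 turned to -0.43. In these fits the sulfur term compares deficient shoot 1 with control shoot 3 alone. Leaving out 1 shoot gave log2 mRNA changes of -0.060 to 0.084 for Dw1, -0.056 to 0.015 for Dw2 and -0.32 to -0.18 for Dw3. The footprint changes ran from -0.62 to 0.23, -0.64 to -0.18 and -0.090 to 0.19, and those of efficiency from -0.58 to 0.29, -0.65 to -0.12 and 0.15 to 0.43. The replicate numbers do not pair control with deficient shoots (correlations of deviations -0.161 to 0.184 in RNA and -0.0197 to 0.106 in footprints). With the replicate block the log2 changes of Dw1, Dw2 and Dw3 were 0.02, -0.02 and -0.24 in mRNA and -0.13, -0.36 and 0.02 in footprints. With the shoot as a block those of efficiency were -0.17, -0.32 and 0.26. No block changed a call.

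Comparisons between the genes kept their direction in each alternative. With 5 shoots the smallest two-sided p is 0.0625, so none could pass. The log2 ratios with 1 shoot left out ran from 1.12 to 1.37 (Dw3 over Dw2), 1.48 to 1.87 (Dw3 over Dw1) and 0.21 to 0.50 (Dw2 over Dw1) in efficiency. In the same order they ran from -0.88 to -0.80, 0.29 to 0.39 and 1.17 to 1.23 for mRNA, and from 0.32 to 0.50, 1.81 to 2.15 and 1.42 to 1.66 for footprints per coding kilobase.

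Counts of calls over all transcripts moved more. For RNA, 127 became 262 with DESeq2, 200 with no filter, 294 with the batch term, 2294 without the pair and 35 to 508 without 1 shoot. For footprints, 37 became 95 with DESeq2, 4 with the batch term, 77 without the pair and 11 to 70 without 1 shoot. For efficiency the count was 0 in edgeR, DESeq2 and limma, with 235 to 1164 at an unadjusted p under 0.05 over the fits without 1 shoot. Counts over the gene lists were not run, since the lists were void. The footprint interval of Dw1 had a half-width of 0.971 on the log2 scale, against a median of 0.442 over all transcripts. Its footprint counts had a chi-square per degree of freedom of 3.17 within groups, and the part of depth in that width was not tested.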

Other observations

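The genes beside the dwarfing genes in ID order were looked at after the results above were known. Of the 10 nearest IDs, 5 on either side, 6 passed the RNA filter around Dw1, 8 around Dw2 and 3 around Dw3. Over all transcripts 58.6% passed it. Of the 10 neighbours of Dw3, 3 had more mRNA per coding kilobase than Dw3 itself. Around Dw1 5 of 10 and around Dw2 3 of 10 had more than the dwarfing gene. Of the 30 neighbours, 17 were tested in mRNA and 14 in footprints, and edgeR called 0 in either assay (lowest adjusted p 0.42 and 0.747), against 0.634% and 0.224% of all transcripts tested. An unadjusted p under 0.05 was found for 0 of them in either assay. Over all transcripts tested it was found for 12.2% in mRNA and for 1140 of 16514 in footprints. Neighbours of Dw3 that passed the filter had mRNA log2 changes of -0.02 to 0.15, against -0.23 for Dw3.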
